A study of Mus musculus with 8 samples.

Results

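Respiratory complex I genes were taken from the count table of newborn mouse skeletal muscle by name, as every row whose symbol starts with Ndufa, Ndufb, Ndufc, Ndufs or Ndufv. This gave 42 of 23336 rows, of which 38 were named as subunits and 4 as assembly factors (Ndufaf1 to Ndufaf4). Total RNA depleted of ribosomal RNA had been sequenced from 4 ΔDMR1-U2 mice, which carry a deletion named for a differentially methylated region (DMR1) of Igf2, an imprinted gene that encodes a fetal growth factor, and from 4 wild-type mice. All 8 animals were C57BL/6 females at postnatal day 2, and the libraries of each group were named 1A, 1B, 2 and 3. The study concerns transcripts of Igf2as, the gene antisense to Igf2, and the comparison made here asks how the mRNA levels of complex I genes differ in muscle of mice with the deletion. The sources used here name neither the parent of origin of the deletion nor the muscles dissected.

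Complex I, or NADH:ubiquinone oxidoreductase, is the entry point of electrons from NADH into the respiratory chain of the inner mitochondrial membrane. It oxidises NADH, passes the electrons along a chain of iron-sulphur clusters to ubiquinone and pumps protons across the membrane. An arm in the matrix carries the NADH-oxidising and quinone-reducing modules, and a membrane arm with a proximal and a distal part carries the proton pumps. Core subunits do the catalysis and accessory subunits surround them, while assembly factors help to build the complex and are absent from the finished enzyme. Muscle is rich in the complex because contraction draws on oxidative phosphorylation. The core subunits of the membrane arm are encoded by mitochondrial DNA and were not analysed here.

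Sequencing depth ran between 16781493 and 20060129 counts in ΔDMR1-U2 libraries, and between 16084413 and 26913636 in wild-type ones. Igf2as was at 5.55 to 6.18 CPM (counts scaled to a library total adjusted by normalisation between libraries) in the ΔDMR1-U2 libraries, against 54.4 to 72.2 CPM in the wild-type libraries, so all 8 libraries carried the level of their label. Xist, which coats the silenced X of female cells, was at 2.50 CPM in ΔDMR1-U2 library 1A, where the other 7 libraries had 1270 to 1895 CPM. That is low for a library labelled as female. The same library held 3 counts of Y-linked genes, where the others held 0 to 8, so its low Xist level came without raised Y-linked counts. The cause was not tested. ΔDMR1-U2 library 1B lay at one end of the first principal component, with a score of -41.7 against -16.9 to 23.9 in the others. The summed level of 8 skeletal muscle markers was 161000 to 181000 CPM in ΔDMR1-U2 and 177000 to 208000 CPM in wild-type libraries. Ucp1, which defines brown fat, was at 0 to 0.0987 CPM in ΔDMR1-U2 and 0 to 0.112 CPM in wild-type libraries. The list of 7 brown adipocyte markers that holds Ucp1 summed to 114 to 154 CPM in ΔDMR1-U2 and 119 to 130 CPM in wild-type libraries. Much of that sum came from Cox8b, Cox7a1 and Ppargc1a. The first 2 are also counted below among complex IV genes and Ppargc1a among regulators of respiratory genes, so the sum is not a measure of brown fat alone.

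Of the complex I genes, 1 passed the test across all genes, Ndufa8, which was lower in ΔDMR1-U2 muscle, and most of the others had small negative log2 fold changes that did not pass. Of the 41 members tested, 1 was called lower, 0 higher and 40 were not called, where 1.13% of all 15241 tested genes were called with 0.617% lower and 0.512% higher (edgeR quasi-likelihood test, Benjamini-Hochberg adjusted p under 0.05). A negative log2 fold change, meaning a lower level in ΔDMR1-U2, was found for 38 of the 41 members and for 50.2% of all tested genes. The median log2 fold change was -0.22 over the 37 tested subunit rows, with a range of -0.41 to 0.07, and -0.16 over the 4 Ndufaf rows, with a range of -0.53 to 0.04. The median over all tested genes was 0.00. The 4 ΔDMR1-U2 libraries lay below the 4 wild-type libraries without overlap for 14 members, and above them for 0, where 6.38% of all tested genes lay wholly below and 12.8% did not overlap in either direction. An unadjusted p under 0.05 was reached by 23 members, all lower, where 10.9% of all tested genes did so in that direction and 21.3% in either. In bulk tissue, fewer cells of a type and less RNA per cell cannot be told apart. For the skeletal muscle markers the median log2 fold change was -0.17, with 8 of 8 negative. Macrophage markers also had -0.17, with 6 of 6 negative and summed levels of 258 to 280 CPM in ΔDMR1-U2, against 277 to 348 CPM in wild-type libraries. Markers of Schwann cells, the glia of peripheral nerves, had 0.63, with sums of 318 to 410 CPM in ΔDMR1-U2, against 222 to 305 CPM in wild-type libraries, and no overlap. White adipocyte markers had 0.61 (35.2 to 168 CPM in ΔDMR1-U2, against 29.2 to 66.9 CPM in wild-type libraries). Without ΔDMR1-U2 library 1B, which held the 168 CPM, the white adipocyte median was -0.3. Cartilage markers had -0.96 (34.7 to 641 CPM in ΔDMR1-U2, against 54.6 to 1380 CPM in wild-type libraries). The part of these cell types in the values of the complex I genes was not tested.

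**Figure D1:**
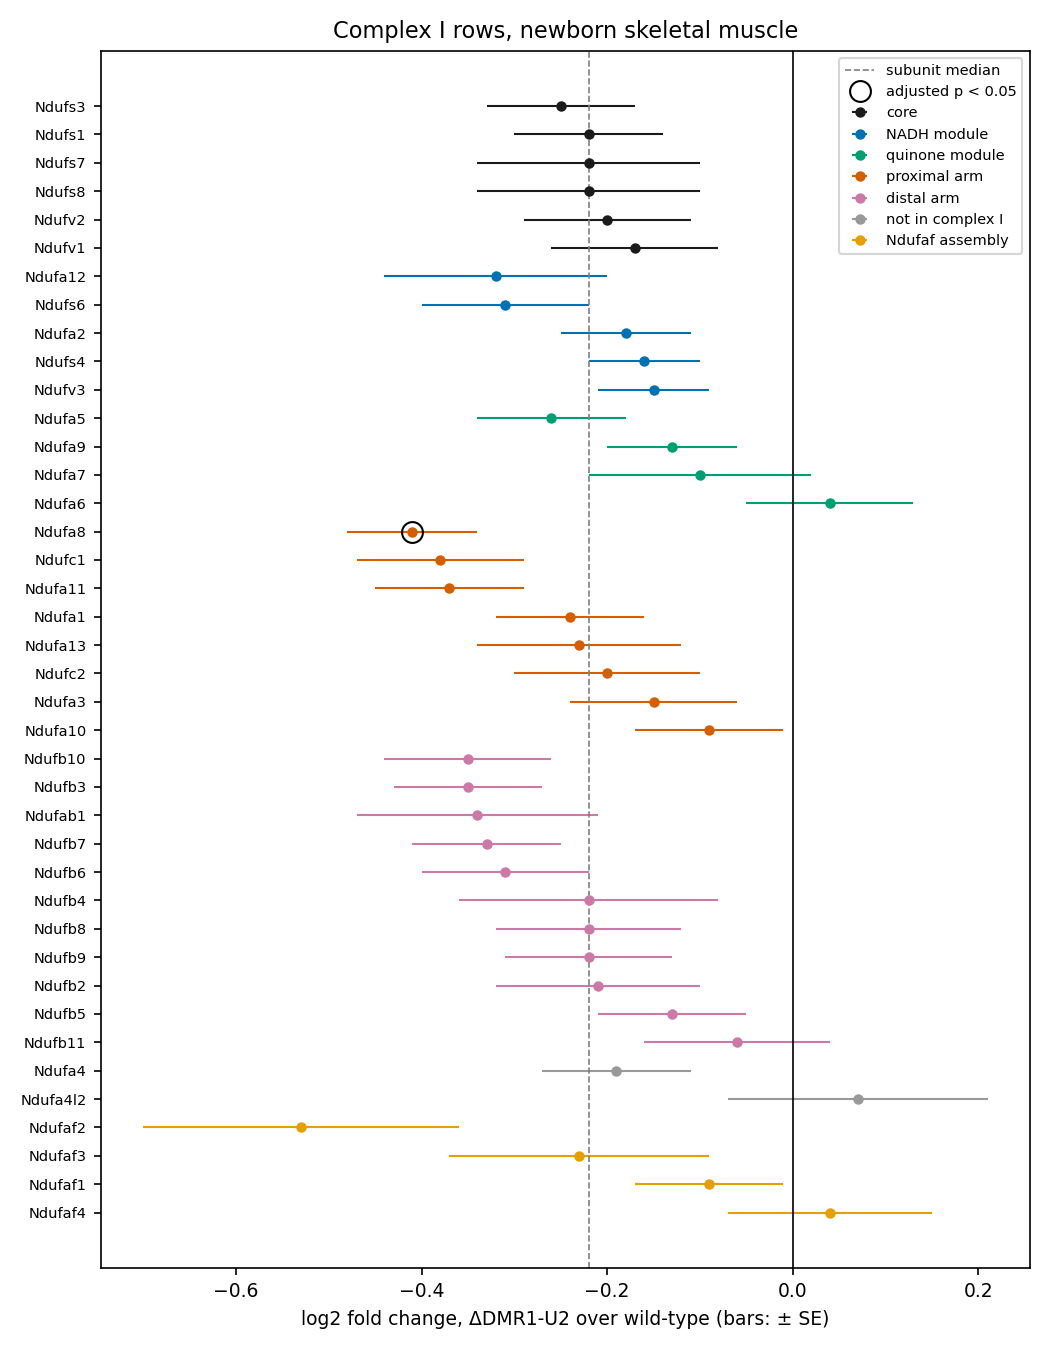
Log2 fold change of ΔDMR1-U2 over wild-type muscle for 40 tested complex I rows, with bars of ± 1 standard error, grouped by module. Most points lie to the left of 0 around the subunit median of -0.22, and the circled Ndufa8 is the member that passed the adjusted threshold.

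Ndufa8, an accessory subunit on the intermembrane-space face of the proximal membrane arm, fell in ΔDMR1-U2 muscle. It had 38.2, 37.9, 40.9 and 42.5 CPM in ΔDMR1-U2 libraries 1A, 1B, 2 and 3, against 55.1, 50.1, 52.0 and 54.2 CPM in wild-type libraries 1A, 1B, 2 and 3. Every ΔDMR1-U2 library was below every wild-type library. The means were 39.9 ± 2.23 CPM in ΔDMR1-U2 mice, against 52.8 ± 2.23 CPM in wild-type mice (SD, n = 4 each), from raw counts of 686 to 862 in the ΔDMR1-U2 libraries and 849 to 1390 in the wild-type ones. The log2 fold change was -0.41 (standard error, SE, 0.07), a level 24.5% lower (adjusted p = 0.0301, edgeR). The gene, ENSMUSG00000026895.7, lies on chromosome 2 from 36036326 to 36049406 on the minus strand of GRCm38 (mm10), with 4 exons. Its exons overlap no other annotated gene, and no near-identical transcript of another gene was found, so its reads are not shared in this way.

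The call of Ndufa8 was kept without ΔDMR1-U2 library 1A, 1B or 2 and lost without ΔDMR1-U2 library 3 or any 1 wild-type library, with adjusted p values of 0.0641 to 0.108 in those fits (edgeR). Its log2 fold change stayed between -0.43 and -0.38 over the 8 leave-one-out fits. Without both ΔDMR1-U2 libraries 1A and 1B it was -0.34 (adjusted p = 0.117, edgeR). The authors' deposited table lists Ndufa8 as 1.33-fold higher in wild-type than in ΔDMR1-U2, with an adjusted p of 0.0821, and none of the 41 members with a fold there has an adjusted p under 0.05, where 0.887% of the genes in the authors' deposited table do. The number of members called also moved with the tool and the libraries: it was 7 with DESeq2 and 6 without ΔDMR1-U2 library 2, all lower. Over all genes, 930 and 631 were called in those fits, against 172 in the edgeR fit of all libraries. The 7 were Ndufa8, Ndufb10, Ndufa11, Ndufb3, Ndufc1, Ndufb7 and Ndufa5, and the 6 were Ndufa8, Ndufb10, Ndufa11, Ndufb3, Ndufc1 and Ndufb6.

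The 100 bases before the outermost annotated start of Ndufa8, at chr2:36049407-36049506 on the minus strand of GRCm38.p6 (RefSeq promoter table), are shown because this is the gene that passed the test.
Ndufa8: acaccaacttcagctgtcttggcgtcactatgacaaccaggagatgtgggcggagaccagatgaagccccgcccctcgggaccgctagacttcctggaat
None of the 6 motifs described further on was found, letter for letter, in the 300 bases around the RefSeq start of this gene. The bases directly before that start, which lie outside the stretch shown, match the NRF1 motif in all but its first letter.

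The 7 core subunits of the matrix arm had log2 fold changes of -0.25 to -0.17, the narrowest range of any module with more than 2 members, and none was called by edgeR or DESeq2. An unadjusted p under 0.05 was reached by 4 (57.1%), against 21.3% of all tested genes. Ndufs3, which helps to link the modules of the matrix arm, had the smallest p. It had 45.7, 46.3, 51.9 and 50.6 CPM in ΔDMR1-U2 libraries 1A, 1B, 2 and 3, against 65.4, 56.0, 52.1 and 57.6 CPM in wild-type. The groups did not overlap but nearly touched, at 51.9 CPM in ΔDMR1-U2 library 2 and 52.1 CPM in wild-type library 2. Its log2 fold change was -0.25 (SE 0.08, adjusted p = 0.128, edgeR). Ndufs1, which carries iron-sulphur clusters of the NADH module, Ndufs7 and Ndufs8, which hold the clusters nearest to ubiquinone, each had -0.22. Ndufv2 had -0.20 and Ndufv1, which binds NADH and the flavin that takes its electrons, had -0.17. For these 5 the groups overlapped, and their adjusted p values ran from 0.151 to 0.315 (edgeR).

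Of the 5 accessory subunits of the NADH module, none was called by edgeR or DESeq2, all 5 had an unadjusted p under 0.05 and a negative log2 fold change, and 3 did not overlap between groups, where 21.3% and 12.8% of all tested genes did so in either direction. Ndufs6, a zinc-binding subunit, had 26.4, 26.6, 28.2 and 24.8 CPM in ΔDMR1-U2, against 37.3, 31.2, 28.2 and 34.9 CPM in wild-type libraries. The highest ΔDMR1-U2 and the lowest wild-type library are equal to 3 digits. Its log2 fold change was -0.31 (SE 0.09, adjusted p = 0.110, edgeR). Ndufs4, which is needed for a stable NADH module, had -0.16, and Ndufa12, the subunit to which the assembly factor Ndufaf2 is related, had -0.32 (adjusted p = 0.153 and 0.160, edgeR).

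The 4 accessory subunits of the quinone module had the median nearest to 0 among the 5 modules, -0.12. Ndufa5 had 53.2, 48.3, 50.8 and 46.4 CPM in ΔDMR1-U2, against 65.8, 56.8, 54.4 and 61.4 CPM in wild-type libraries, with no overlap. Its log2 fold change was -0.26 (SE 0.08, adjusted p = 0.102, edgeR). Ndufa9, which holds a bound nucleotide beside the quinone site, had -0.13 and Ndufa7 had -0.10, which was 0.01 without wild-type library 1A. Ndufa6 had 71.7, 77.3, 78.1 and 69 CPM in ΔDMR1-U2, against 81.2, 68.0, 61.1 and 77.5 CPM in wild-type libraries. These overlap widely, and its log2 fold change of 0.04 was -0.02 without wild-type library 2.

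The membrane arm subunits held the members with the smallest p after Ndufa8. Of 9 rows for the proximal part, 8 were tested, with log2 fold changes of -0.41 to -0.09. The groups did not overlap for 4 of them (50%), against 12.8% of all tested genes in either direction. Ndufa11 had -0.37 (SE 0.08, adjusted p = 0.0575, edgeR), and Ndufc1 had -0.38 (SE 0.09, adjusted p = 0.0694, edgeR). The row of Ndufs5, another proximal subunit, was listed at 0 in all 8 libraries. A count of 0 allows up to 3 counts, or 0.111 to 0.187 CPM of the unadjusted total depending on the library, for counting error only. The listing is not a measure of whether the gene was expressed. The 11 subunits of the distal part had log2 fold changes of -0.35 to -0.06 and 4 (36.4%) did not overlap, against the same 12.8%. Ndufb3 had 35.5, 32.0, 35.1 and 32.2 CPM in ΔDMR1-U2, against 46.6, 45.8, 38.9 and 40.6 CPM in wild-type libraries. All ΔDMR1-U2 values lay below all wild-type values, with a log2 fold change of -0.35 (SE 0.08, adjusted p = 0.0618, edgeR). Ndufb7 had -0.33 and Ndufb10, which like Ndufb7 faces the intermembrane space, had -0.35 (adjusted p = 0.0639 and 0.0801, edgeR).

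Ndufa4 and Ndufa4l2 match by name but do not belong to the finished complex I, since Ndufa4 is a subunit of cytochrome c oxidase and Ndufa4l2 is its hypoxia-induced relative. Ndufa4 had 150, 129, 147 and 125 CPM in ΔDMR1-U2, against 163, 166, 142 and 159 CPM in wild-type libraries, which overlap, and a log2 fold change of -0.19 (adjusted p = 0.200, edgeR). Ndufa4l2 was at 5.26 ± 0.794 CPM in ΔDMR1-U2 mice, against 5.0 ± 0.592 CPM in wild-type mice (SD, n = 4 each), and its log2 fold change of 0.07 was -0.03 without ΔDMR1-U2 library 1B. Without both rows the subunit median remained at -0.22.

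**Figure D2:**
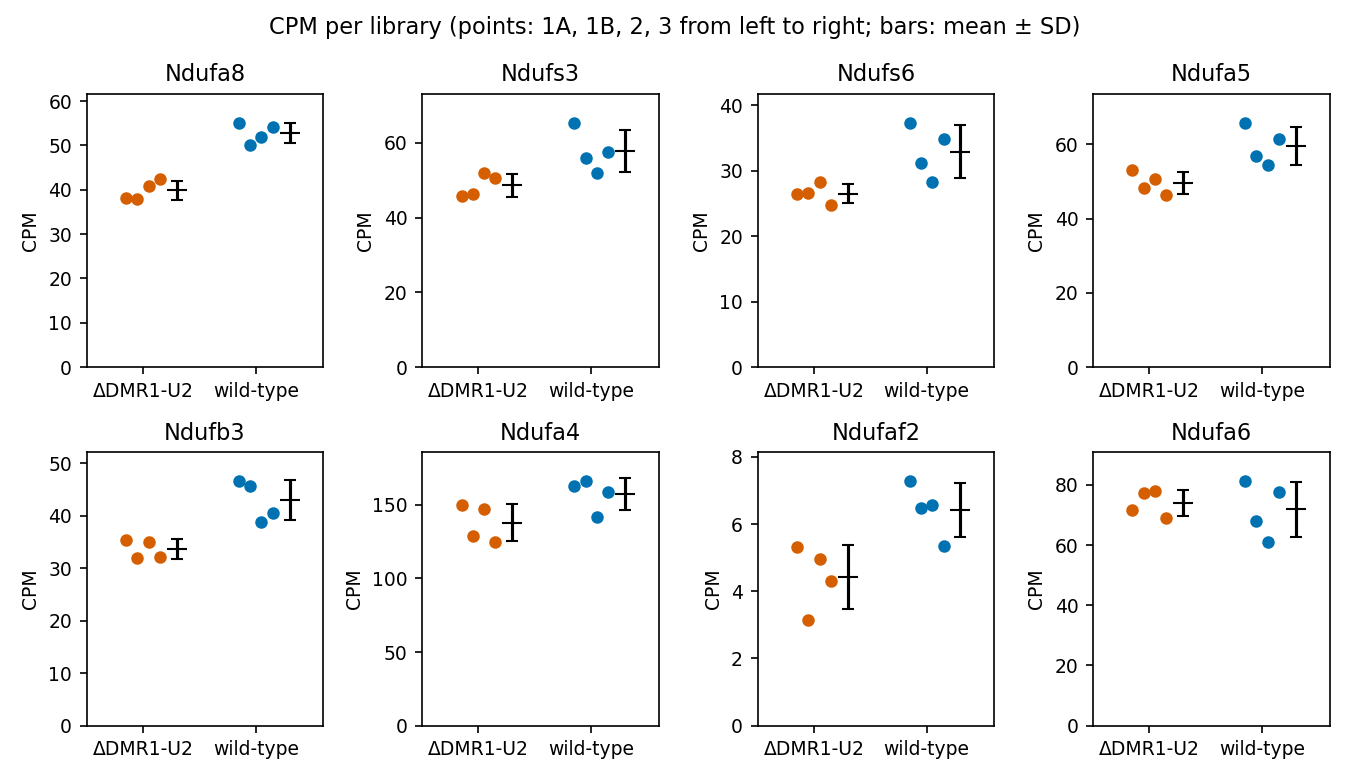
CPM of 8 complex I rows in each library (points, with 1A, 1B, 2 and 3 from left to right) with the mean and SD of each group. Ndufa8 lies at 37.9 to 42.5 CPM in ΔDMR1-U2 and 50.1 to 55.1 CPM in wild-type libraries, while the groups overlap for Ndufa4 and Ndufa6.

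Among the assembly factors, none of the 4 Ndufaf rows was called by edgeR or DESeq2. An unadjusted p under 0.05 was reached by 1 of them (25%), near the 21.3% of all tested genes. Ndufaf2, a chaperone of a late step in the building of the matrix arm, had 5.31, 3.15, 4.95 and 4.29 CPM in ΔDMR1-U2, against 7.27, 6.47, 6.58 and 5.35 CPM in wild-type libraries. The groups did not overlap, though ΔDMR1-U2 library 1A and wild-type library 3 lay close together. Its log2 fold change was -0.53, the lowest of the 41 members (SE 0.17, adjusted p = 0.118, edgeR), and leaving out single libraries moved it between -0.63 and -0.40. Ndufaf3, which acts in a pair with Ndufaf4 on the quinone module, had -0.23, and Ndufaf1, which helps to build the membrane arm, had -0.09 (adjusted p = 0.342 and 0.510, edgeR). Ndufaf4 had 0.04, which was -0.03 without wild-type library 3.

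The table lists 4 further factors under older symbols, which the name rule does not take: 2310003L22Rik (Ndufaf5), 2310030N02Rik (Ndufaf6), 2410091C18Rik (Ndufaf7) and 1810043H04Rik (Ndufaf8). Ndufaf6 was at 6.70 ± 0.650 CPM in ΔDMR1-U2 mice, against 8.96 ± 0.583 CPM in wild-type mice (SD, n = 4 each), without overlap and with a log2 fold change of -0.42 (adjusted p = 0.0758, edgeR). Ndufaf5, which modifies Ndufs7, had -0.32 and did not overlap, Ndufaf8, its partner, had -0.26, and Ndufaf7, a methyltransferase, had -0.16. With these 4 added, 7 of 8 Ndufaf genes had a negative value, 0 were called by edgeR, 1 (Ndufaf6) was called lower by DESeq2, and their median was -0.25.

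The median of the subunits minus that of the 4 Ndufaf rows was -0.05, and it was 0.03 once the 4 genes under older symbols were added. In the 8 leave-one-out fits the difference lay between -0.08 and 0.00. Of 14 other genes of complex I assembly, 0 were called in edgeR and 2 in DESeq2, 5 had an unadjusted p under 0.05 and 11 had a negative value, with a median of -0.15. The shares were 35.7% at an unadjusted p under 0.05 and 78.6% negative, against 21.3% and 50.2% of all tested genes. Of the 5, 4 had a negative value, and Dmac2, listed as Atp5sl, had 0.29 (adjusted p = 0.196, edgeR). The smallest p among them was that of Aifm1, which takes part in the import of respiratory chain proteins, at 30.4 ± 1.52 CPM in ΔDMR1-U2 mice, against 37.8 ± 2.11 CPM in wild-type mice (SD, n = 4 each), with a log2 fold change of -0.31 (adjusted p = 0.0594, edgeR).

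The shift differed from library to library. The median deviation of the 37 subunit rows from the wild-type mean, on the log2(CPM + 0.5) scale, was -0.26, -0.28, -0.09 and -0.23 in ΔDMR1-U2 libraries 1A, 1B, 2 and 3, against 0.16, -0.04, -0.17 and 0.03 in wild-type. The groups therefore overlapped, since wild-type library 2 was lower than ΔDMR1-U2 library 2. The 4 Ndufaf rows had medians between -0.27 and 0.01 in ΔDMR1-U2, against -0.16 to 0.16 in wild-type libraries. All 5 modules had their highest median in wild-type library 1A, which held the highest level of the 8 libraries for 34 of the 41 members. The lowest level was in ΔDMR1-U2 library 3 for 15 members, 1B for 11 and 1A for 9. Without wild-type library 1A the subunit median was -0.16, and without ΔDMR1-U2 library 1A or 1B, the libraries that stood apart, it was -0.20 and -0.19. Without both it was -0.17. Over all tested genes the medians per library were -0.01 to 0.01.

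**Figure D3:**
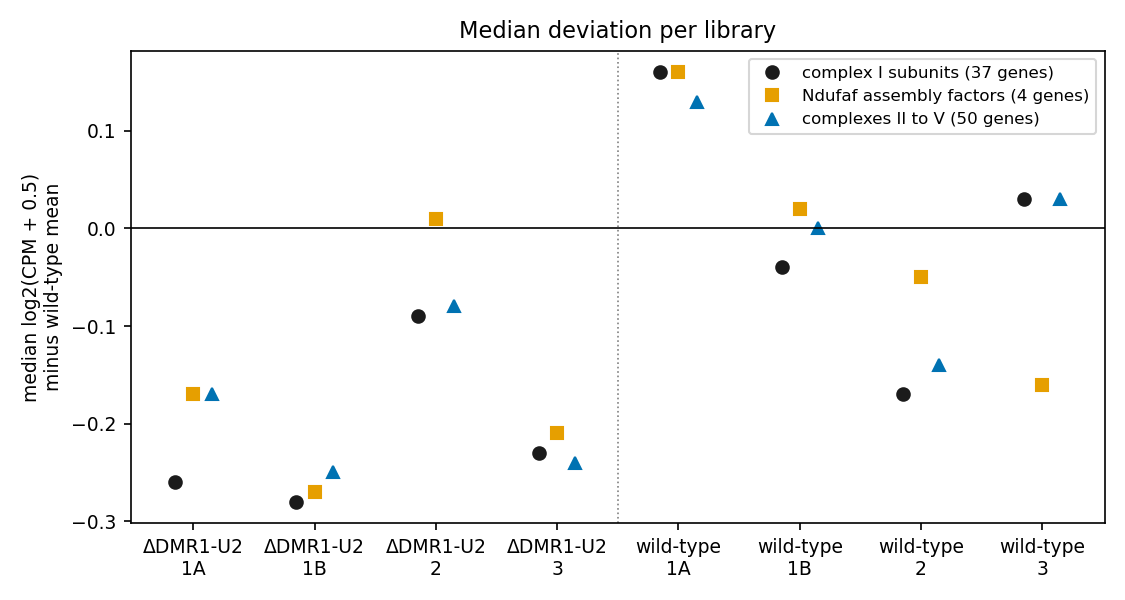
Median deviation of log2(CPM + 0.5) from the wild-type mean in each of the 8 libraries, for complex I subunits, Ndufaf assembly factors and genes of complexes II to V. The subunits lie between -0.28 and -0.09 in ΔDMR1-U2, against -0.17 to 0.16 in wild-type libraries, and the genes of the other complexes follow them within 0.1 in each library.

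Levels per length were lower for the assembly factors than for most subunits. On the scale of CPM per kilobase of the principal transcript, the 4 Ndufaf rows were between 5.52 and 11.9 in ΔDMR1-U2, against 6.30 to 12.7 in wild-type mice. Ndufa4 was the most abundant row, at 226 ± 21.2 CPM per kilobase in ΔDMR1-U2 and 259 ± 17.7 in wild-type mice (SD, n = 4 each), and among subunits of the complex Ndufb9 led, at 181 ± 19.4 and 210 ± 20.5. Among the core subunits, Ndufs8 was at 41.9 ± 5.06 in ΔDMR1-U2 and 49.1 ± 7.46 in wild-type mice, and Ndufv1 at 86.0 ± 6.61 and 96.7 ± 11.7. Ndufa4l2, Ndufab1, which is the mitochondrial acyl carrier protein, and Ndufb2 were as low as the assembly factors, at 4.84 to 7.47 in ΔDMR1-U2, against 5.36 to 8.64 in wild-type mice. The principal transcripts of Ndufab1, Ndufb2 and Ndufaf4 are listed with 3479, 4371 and 3632 bases, against a median of 971 over the members, and a level per length falls with the listed length. Before division by length Ndufaf4 was at 23.6 ± 1.89 CPM in ΔDMR1-U2 mice, against 22.9 ± 3.62 CPM in wild-type mice (SD, n = 4 each).

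**Figure D4:**
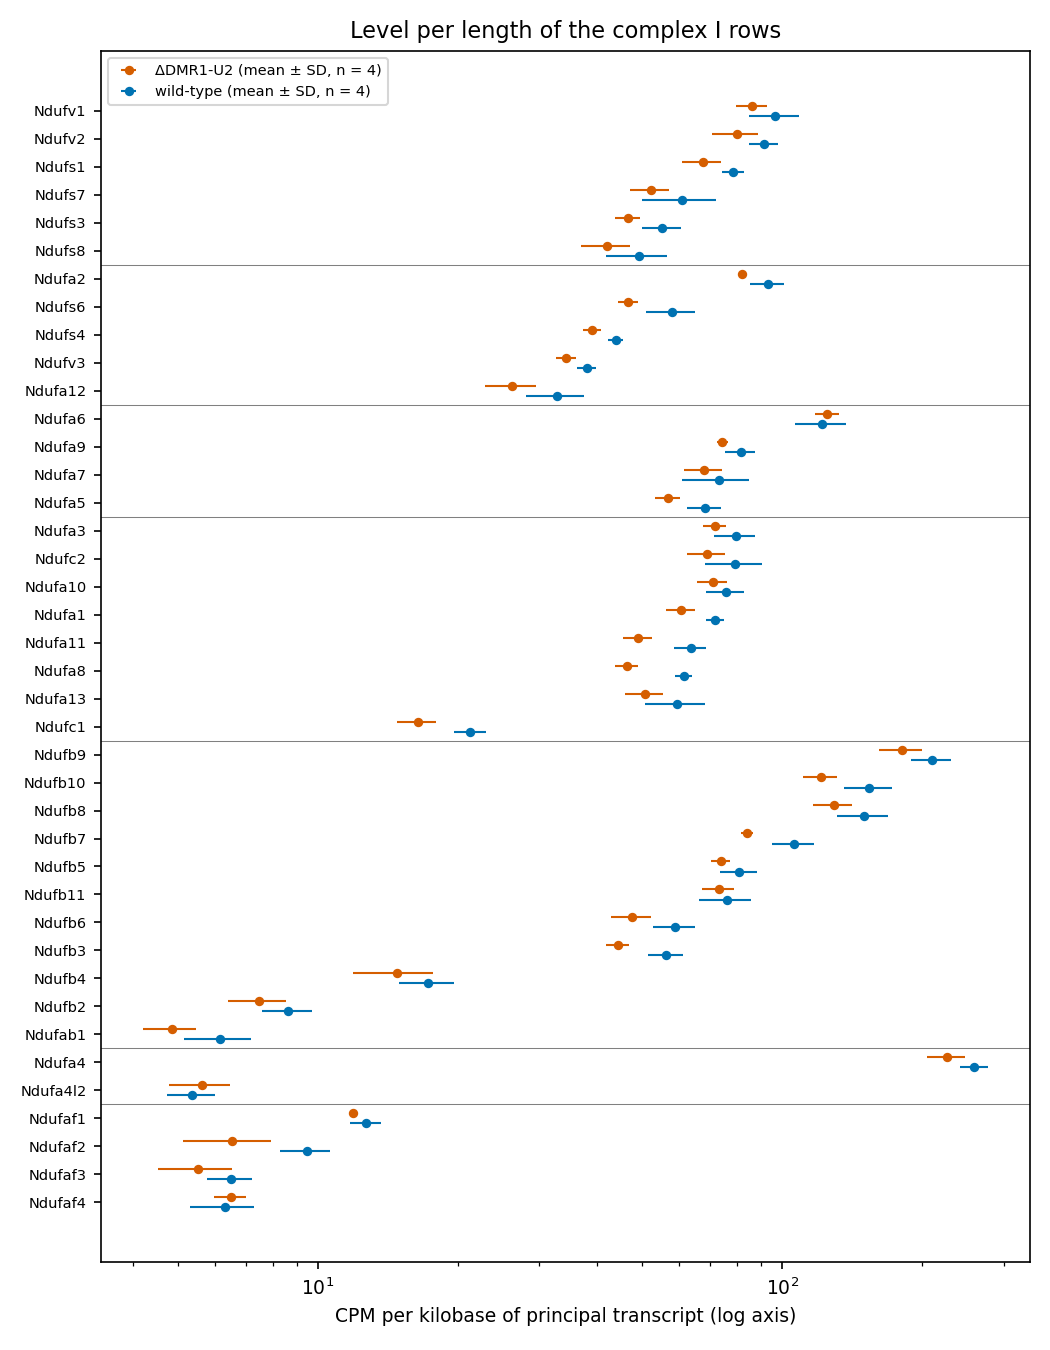
Level of 40 detected complex I rows in CPM per kilobase of principal transcript (log axis), as mean ± SD over 4 libraries of each group, in blocks by module with the assembly factors at the bottom. Ndufa4 stands at the top of the scale, at 226 in ΔDMR1-U2 and 259 in wild-type mice, and the Ndufaf rows lie near its lower end.

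Genes of the other respiratory complexes had values like those of complex I. Of 50 tested genes of complexes II to V, 3 were called lower, 0 higher and 49 had a negative log2 fold change, with a median of -0.19. Among all tested genes, 0.617% were called lower and 50.2% had a negative value. The 1 positive gene was Cox7a2l, listed with complex IV, at 0.23 (adjusted p = 0.107, edgeR). Its level was higher in every ΔDMR1-U2 library than in every wild-type library. By complex the medians were -0.21 for complex II, -0.24 for complex III, -0.14 for complex IV and -0.18 for complex V. The called genes were Cyc1, cytochrome c1 of complex III, and Atp5g1 and Atp5g3, genes for the membrane ring of ATP synthase. Cyc1 fell by 0.39, Atp5g1 by 0.39 and Atp5g3 by 0.35 on the log2 scale (adjusted p = 0.0426, 0.0475 and 0.0426, edgeR). Each of these 3 calls was kept without ΔDMR1-U2 library 2 and lost without any other single library. Atp5g1 and Atp5g3 belong to a family whose members can share reads. In complexes II and IV, where edgeR called none and DESeq2 called 1 and 3, the smallest p was that of Sdha at -0.28 and Cox5a at -0.36 (adjusted p = 0.0891 and 0.0575, edgeR). Of 18 regulators of respiratory genes, 0 were called by edgeR or DESeq2, 3 had an unadjusted p under 0.05 and 10 had a negative value, with a median of -0.04. The shares were 16.7% at an unadjusted p under 0.05 and 55.6% negative, near the 21.3% and 50.2% of all tested genes. The smallest p there was that of Ppara, a lipid-sensing nuclear receptor, with a log2 fold change of 1.00 (adjusted p = 0.147, edgeR). It had 33.5, 109, 31.6 and 36.9 CPM in ΔDMR1-U2, against 25.4 to 27.1 CPM in wild-type libraries. The size of this change followed 1 library, though every ΔDMR1-U2 library lay above every wild-type library. The others at an unadjusted p under 0.05 were the nuclear receptors Esrrb, at -0.50 and without overlap, and Ppard, at -0.30 (adjusted p = 0.201 and 0.216, edgeR). Esrrb was at a low level and its groups nearly touched, at 1.28 to 2.42 CPM in ΔDMR1-U2, against 2.53 to 3.4 CPM in wild-type libraries. Nrf1 had 0.03, Gabpa 0.04, Yy1 0.10, Esrra -0.14 and Ppargc1a 0.12, each with overlap between the groups.

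Most complex I transcripts are short, and short transcripts as a class had lower values in ΔDMR1-U2. With the 12965 tested genes of known principal length placed in 4 bins of equal number, 36 of the 41 tested members lay in the bin of 171 to 1984 bases. Over the 3243 genes of that bin the median was -0.06 on the log2 scale and 60.9% of them were negative, while the bin of the longest transcripts had 0.04 and 40.7%. The part of length in the values of the members was not tested.

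Some subunit promoters held a short motif over the start codon. The 300 bases from 250 before to 50 after the RefSeq start were available for 37 members, 33 subunits and 4 Ndufaf genes, and were searched on both strands for 6 motifs. AAGATGGC, the core of the YY1 motif, was in 7 of 33 subunit promoters (21.2%) and in 0 of 4 Ndufaf promoters, against 4.12% of the 10552 promoters of tested genes and 2.88% of all 27025. In each of the 7 it lay on the strand of the gene and held the annotated start codon of the gene. A match of that kind needs a start codon within the window, which ends 50 bases after the RefSeq start. The promoters compared were not matched for this. The NRF1 motif, whose 10 letters are the capitals in the last stretches shown, was in 1 subunit promoter (3.0%) and 1 Ndufaf promoter, against 1.9% of the promoters of tested genes. CCGGAAG, an ETS motif that GABPA binds, was in 12.1% of subunit promoters against 16% of those of tested genes, CCAAT was in 30.3% against 38.4%, TATAAA in 12.1% against 7.59%, and TCAAGGTCA, bound by ERR receptors, in 0.0% against 0.275%. No motif as searched contains another. The 30-base stretches with the YY1 letters in capitals are shown because their share among subunit promoters was above that among tested genes, a difference that was not tested, with positions in GRCm38.p6 from the RefSeq table.
Ndufs7, chr10:80249462-80249491, plus strand: aggccgaggccAAGATGGCggcgctggcgg
Ndufs4, chr13:114388045-114388074, minus strand: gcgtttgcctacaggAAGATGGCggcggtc
Ndufs6, chr13:73328433-73328462, minus strand: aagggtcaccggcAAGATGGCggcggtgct
Ndufa9, chr6:126849097-126849126, minus strand: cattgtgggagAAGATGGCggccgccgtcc
Ndufa3, chr7:3617384-3617413, plus strand: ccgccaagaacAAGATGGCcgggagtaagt
Ndufc1, chr3:51408915-51408944, minus strand: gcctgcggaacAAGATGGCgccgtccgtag
Ndufb8, chr19:44555393-44555422, minus strand: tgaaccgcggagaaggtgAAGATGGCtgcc
The 2 stretches with the NRF1 letters in capitals belong to Ndufa11 and Ndufaf4.
Ndufa11, chr17:56717692-56717721, plus strand: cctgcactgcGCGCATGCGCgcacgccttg
Ndufaf4, chr4:24897960-24897989, plus strand: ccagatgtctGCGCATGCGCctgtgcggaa
The 7 subunits with the YY1 letters had log2 fold changes of -0.38 to -0.13 with a median of -0.22, and the 25 other tested subunits with a promoter had a median of -0.22. A match is a run of letters and does not show binding.

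The members lie on 16 chromosomes, and 2 of them, Ndufa1 and Ndufb11, lie on the X chromosome. Ndufa1 was at 27.6, 24.6, 25.8 and 23.3 CPM in ΔDMR1-U2, against 29.9, 28.8, 29.4 and 31.9 CPM in wild-type libraries, and library 1A, with the low Xist count, had the highest value of the ΔDMR1-U2 group. Ndufb11 was at 64.6, 66.4, 73.2 and 60.9 CPM in ΔDMR1-U2, against 78.3, 70.3, 57.0 and 70.2 CPM in wild-type libraries, which overlap. Exons of 17 members overlap a gene on the opposite strand, among them Ndufa11, Ndufs3, Ndufs6 and Ndufaf2, and reads of such pairs cannot be told apart where counting ignores strand, a setting the sources used here do not state. For 6 members, Ndufa7, Ndufa11, Ndufb7, Ndufb11, Ndufs3 and Ndufs6, the annotation holds another gene with a near-identical transcript, so their values are uncertain to that extent.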

How the data were processed

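Per the labels' protocols, RNA from skeletal muscle of 4 ΔDMR1-U2 and 4 wild-type mice was cleared of ribosomal RNA and read as paired ends. Per the submitters' processing notes, HTSeq 0.5.4p3, DESeq2 1.4.5, TopHat2 2.0.9, Bowtie2 2.1.0 and FastQC 0.10.1 were used with build mm10. The deposited table gives raw counts per gene and library. Per the file headers it also gives the authors' mean normalised counts, a signal per group, the authors' fold of wild-type over ΔDMR1-U2 as a ratio, its log2, and the authors' p-value, raw and adjusted.

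The test was that of edgeR 4.0.16 under R 4.3.3 (quasi-likelihood test, trimmed mean of M values, filterByExpr at a minimum count of 10, Benjamini-Hochberg over 15241 genes), in a fit checked on simulated data. The changes planted there were all larger than the subunit median, so the check does not cover changes of that size. Fold changes are ΔDMR1-U2 over wild-type. Library sizes in CPM are the scaled ones, except for the limit given for Ndufs5, and lengths are those of principal transcripts in GENCODE vM21. Near-identical means at least 90% identity over at least 50% of the transcript (blastn 2.17.0). Alternatives were DESeq2 1.42.0, RLE size factors, no filter, a block by library name or leading number, and fits without single libraries.

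Named members were those called, the 3 with the smallest p in each module and in the Ndufaf rows, the core subunits, Ndufa4, Ndufa4l2 and the extremes of level, and in related lists the called genes or the one with the smallest p. Other genes named, Ndufa1, Ndufa6, Ndufab1, Ndufaf4 to Ndufaf8, Ndufb2, Ndufb6, Ndufb9, Ndufb11, Ndufs5, Dmac2, Cox7a2l and 7 regulators, were chosen after their values were seen. 1 gene that this rule takes is not reported here, though it counts in the totals. The members and lists were chosen with earlier results of these data known.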

Additional observations from a re-analysis of the deposited data

Results flagged for a closer look

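In groups of 4 libraries, a value was marked where its gap to the nearest other library exceeded Dixon's 95% critical share of the range of the group. Chance marks about 1 in 20 groups, and 8 of the 110 groups checked were marked. For Ndufs8, ΔDMR1-U2 library 2 was high at 49.7 CPM, with 38.8 to 40.3 CPM in the rest of its group. For Ndufb6 the same library was at 36.0 CPM against 29.3 to 30.1 CPM, and for Ndufa3 it was at 40.0 CPM against 35.5 to 36.2 CPM.

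The other marked values were sums over marker lists. White adipocyte markers summed to 168 CPM in ΔDMR1-U2 library 1B against 35.2 to 44.7 CPM in the rest of its group, and skin markers to 34.7 CPM in the same library against 14.3 to 15.1 CPM. Skin markers summed to 19.6 CPM in wild-type library 2 against 12.8 to 13.2 CPM. Erythroid markers summed to 125 CPM in ΔDMR1-U2 library 2 against 254 to 267 CPM, and to 790 CPM in wild-type library 3 against 189 to 244 CPM.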

How the results depend on the processing

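The subunit median stayed between -0.27 and -0.16 and the Ndufaf median between -0.23 and -0.11 over the 8 fits that each left out 1 library, and the difference of the medians between -0.08 and 0.00. The number of complex I rows called, 1, ran from 0 to 6 in those fits, and that of all genes called, 172, from 7 to 631. With DESeq2 these numbers were 7 and 930, and without both ΔDMR1-U2 libraries 1A and 1B they were 0 and 16. The libraries of the same name did not deviate together (correlations of -0.216, -0.182, -0.0839 and -0.0802 for 1A, 1B, 2 and 3), so the names were not taken as pairs. With the replicate block by name, 0 complex I rows and 13 genes were called, and with the block by leading number 0 and 9; Ndufa8 kept -0.41 (adjusted p = 0.0925 and 0.0761, edgeR). Over the fits without 1 library, log2 fold changes ran from -0.03 to 0.14 for Ndufa4l2, -0.02 to 0.10 for Ndufa6, -0.17 to 0.01 for Ndufa7, -0.03 to 0.16 for Ndufaf4 and -0.13 to 0.01 for Ndufb11. Signs turned for Ndufa4l2 without ΔDMR1-U2 library 1B (-0.03) or without both 1A and 1B (-0.04), Ndufa6 without wild-type library 2 (-0.02), Ndufaf4 without wild-type library 3 (-0.03), and Ndufa7 and Ndufb11 without wild-type library 1A (0.01 each). RLE size factors and no filter on low counts each called 1 complex I row, Ndufa8. The causes of these changes were not tested. The addition of Ndufaf5 to Ndufaf8 was chosen after seeing the data. Depth limits the rarer Ndufaf rows, at 3.15 to 7.27 CPM per library for Ndufaf2.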

Other observations

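Of the 6 tested brown adipocyte markers, 3 had a positive and 3 a negative log2 fold change, with a median of -0.06. Cox8b and Cox7a1, both negative, are also complex IV genes, and Ppargc1a, which was positive, is also a listed regulator. Cidea, a lipid droplet protein of fat cells on that list, was the 1 gene called among the marker lists. It had 16.1 to 30.7 CPM in ΔDMR1-U2 and 9.94 to 11.2 CPM in wild-type libraries (log2 fold change 1.07, adjusted p = 0.0301, edgeR). Leaving out ΔDMR1-U2 library 3 or any 1 wild-type library ended the call, with log2 fold changes of 1.03 to 1.10 in those fits. Without ΔDMR1-U2 library 1A, 1B or 2 the call was kept, at 1.18, 0.86 and 1.19. Of the 6 Schwann cell markers, 0 were called by edgeR and 2 were called higher by DESeq2. An unadjusted p under 0.05 was reached by 5 (83.3%), against 21.3% of all tested genes.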
